A study of Mus musculus with 6 samples.

Results

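A set of 10 genes of the endothelium that lines the sinusoids of the fetal liver was described across 6 RNA sequencing libraries of mouse fetal liver cells. They are Stab1, Stab2, Lyve1, Kdr, Pecam1, Cdh5, Tek, Tie1, Emcn and Oit3, 10 of the 34542 gene symbols in the count table. They were chosen by name, with earlier results of these data known. All 10 are also among the 15543 genes of a second table that gives exon and intron counts. The libraries came from C57BL/6J embryos, 3 wild-type (WT) and 3 of genotype miR-144/451-/- (KO), which lack the locus of the microRNAs miR-144 and miR-451. Polyadenylated RNA was made from fetal liver cells, and the labels name no sorting, so the libraries hold a mixture of cell types. The age of the embryos, and whether a library came from 1 embryo or from a pool, were not given in the labels, so p-values measure only the spread between these libraries. Libraries are called WT 1, WT 2, WT 3, KO 4, KO 5 and KO 6 after their titles.

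Sinusoids are the wide, leaky capillaries of the liver, and in the fetus they run between hepatocytes and nests of maturing red cells. Their endothelial cells take up waste from the blood through scavenger receptors, which sets them apart from the endothelium of most other vessels. They also carry the general endothelial equipment: receptors for vascular growth factors, and adhesion proteins at the junctions between cells. Several of these genes are used outside sinusoids too: PECAM-1, TIE2 and endomucin are also found on blood stem cells, and PECAM-1 on platelets and leukocytes. The deleted microRNAs are made in maturing red cells, and a microRNA lowers messenger RNAs that carry a match to its seed in the 3' untranslated region.

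The mature sequences of the 3 microRNAs of the deleted locus are shown because they fix which of the 10 genes carry a match. They were copied from RefSeq (build GRCm38.p6), run 5′ to 3′, and have the seed (bases 2 to 8) in capitals.
mmu-miR-451a: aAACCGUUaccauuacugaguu
mmu-miR-144-3p: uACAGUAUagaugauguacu
mmu-miR-144-5p: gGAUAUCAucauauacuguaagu
The longest 3' untranslated region of each gene in the GENCODE annotation of GRCm38 was searched for the reverse complement of each seed. Pecam1 held 1 match to miR-451a, Tek held 3 to miR-144-3p and Emcn held 1 to miR-144-5p, and the other 7 genes held none. Among 21153 genes with such a region, 1.95% had a match to miR-451a, 12.3% to miR-144-3p and 6.59% to miR-144-5p. The matches are given with 10 bases before them and up to 10 after the seed match, the match in capitals, with a following A in capitals where it extends the match.
Pecam1, miR-451a, base 752 of 926: ccactaaagaAACGGTTtcctaaggtc
Tek, miR-144-3p, base 293 of 978: atgagtacaaATACTGTAatgcataac
Tek, miR-144-3p, base 389 of 978: tacacataagATACTGTtcgttaaaat
Tek, miR-144-3p, base 802 of 978: catgtatcacATACTGTcatattccca
Emcn, miR-144-5p, base 732 of 1629: tgggctcttgTGATATCAtggttaaat

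Each library held 24659978 to 44700229 counts assigned to genes. The deleted genes were nearly absent from the KO libraries: Mir144 had 29 to 51 counts in WT and 0 to 1 in KO, and Mir451 had 323 to 446 counts in WT and 2 to 4 in KO. No pair of libraries of 1 group agreed within sampling noise over all genes, with a chi-square per degree of freedom of 16.7 to 157. WT 2 and KO 6 stood apart from the rest of their groups. The summed level of 20 hepatocyte markers was 59895 CPM, the unit in which edgeR gives counts relative to the scaled library size, in WT 2 and 48775 CPM in KO 6, against 9562 to 21704 CPM in the other 4 libraries. Results that rest on these 2 libraries are given with and without them.

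All 10 genes were detected in every library and all were tested. None was called different between KO and WT livers. In edgeR's quasi-likelihood test with Benjamini-Hochberg adjustment over 15105 genes, 0 of 10 passed an adjusted p of 0.05. Of the 15105 genes 3.28% passed (1.83% higher and 1.45% lower in KO). Intervals were wide, for example -1.28 to 1.44 on the log2 scale for Stab1, so these tests do not show that levels were equal. DESeq2 called 0 of the 10, beside 1307 of the 15105 genes. At an unadjusted p under 0.05, 0 of the 10 differed by edgeR, the smallest being 0.304 for Emcn. The share of all tested genes at that unadjusted p is not given for the fits over all 6 libraries. Such counts, here and for the lists and introns below, therefore have no background beside them. The groups overlapped for all 10 genes, whereas they did not overlap for 22.7% of all tested genes. In each gene the difference between libraries of the same genotype exceeded the difference between the genotypes. Since whole fetal liver cells were measured, a change in the number of endothelial cells and a change in RNA per cell cannot be told apart.

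The scavenger receptors, the genes most typical of sinusoids, are described first. Stab1 encodes stabilin-1, a large receptor that clears modified lipoproteins and other waste. It measured 28.2, 84.8 and 25.4 CPM in WT 1, WT 2 and WT 3 and 32.2, 35.0 and 79.3 CPM in KO 4, KO 5 and KO 6. WT 2 and KO 6 were the 2 high libraries, and the groups overlapped. Group means with SD (n = 3 each) were 46.1 ± 33.5 CPM for WT and 48.8 ± 26.4 CPM for KO, and the log2 change was 0.08 (95% interval -1.28 to 1.44, adjusted p = 0.996, edgeR). Stab2 encodes stabilin-2, its relative, which takes up hyaluronan and is a hallmark of sinusoids. Its levels were 30.1, 93.4 and 25.5 CPM in WT and 34.2, 37.6 and 90.3 CPM in KO, high again in WT 2 and KO 6. That gave 49.7 ± 37.9 against 54.1 ± 31.4 CPM and a log2 change of 0.12 (-1.33 to 1.57, adjusted p = 0.992, edgeR, n = 3 each). Lyve1, a hyaluronan receptor shared by sinusoidal and lymphatic endothelium, stood at 14.2, 40.1 and 10.6 CPM in WT and 16.6, 18.4 and 40.4 CPM in KO. The same 2 libraries were high, and the log2 change was 0.21 (-1.18 to 1.60, adjusted p = 0.964, edgeR).

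The growth factor receptors were high in the same libraries. Kdr encodes VEGFR2, the main signalling receptor for vascular endothelial growth factor A. It measured 13.1, 35.8 and 13.2 CPM in WT and 16.7, 17.0 and 40.7 CPM in KO, so that 1 library in each group lay well above the other 2. Its log2 change was 0.26 (-1.01 to 1.53, adjusted p = 0.937, edgeR, n = 3 each). Tek encodes TIE2, the receptor for angiopoietins that keeps vessels quiescent. Levels of Tek were 3.50, 10.7 and 3.07 CPM in WT and 4.86, 4.01 and 10.1 CPM in KO, with a log2 change of 0.14 (-1.26 to 1.53, adjusted p = 0.986, edgeR). Tie1 encodes the partner receptor of TIE2, which binds no angiopoietin by itself with high affinity. It stood at 6.95, 17.3 and 8.76 CPM in WT and 7.90, 7.94 and 17.7 CPM in KO, and its log2 change of 0.02 was the smallest of the 10 (-1.08 to 1.12, adjusted p = 0.998, edgeR).

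Of the 2 junction genes, Cdh5 varied more than Pecam1. Cdh5 encodes VE-cadherin, the adhesion protein of endothelial adherens junctions. Its levels were 21.4, 46.4 and 17.7 CPM in WT and 24.2, 23.7 and 42.7 CPM in KO, a log2 change of 0.08 (95% interval -0.92 to 1.08, adjusted p = 0.992, edgeR, n = 3 each). Pecam1 encodes PECAM-1 (CD31), an adhesion protein of endothelial junctions, platelets and leukocytes. It measured 13.2, 21.7 and 13.5 CPM in WT and 12.9, 13.8 and 22.6 CPM in KO. WT 2 and KO 6 were again the highest, but the highest library was 1.76 times the lowest, beside 2.55 to 3.87 times for the other 9 genes. Pecam1 therefore had the narrowest interval, -0.68 to 0.73 around a log2 change of 0.03 (adjusted p = 0.998, edgeR).

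The last pair are a surface sialomucin and a secreted protein. Emcn, which encodes endomucin of venous and capillary endothelium, had the lowest counts of the 10 genes. WT 1, WT 2 and WT 3 gave 23, 45 and 23 counts and the KO libraries 41, 40 and 100, and a count of 23 has an exact 95% Poisson interval of 14.6 to 34.5 (counting error only). In CPM these are 0.689, 1.28 and 0.955 in WT and 0.873, 0.954 and 2.42 in KO, so KO 6 alone lay above every WT library. Emcn had the largest log2 change, 0.53 (-0.61 to 1.68, adjusted p = 0.707, edgeR, n = 3 each). Oit3 encodes a zona pellucida domain protein whose transcript is found in the liver. It measured 10.6, 29.4 and 8.76 CPM in WT and 12.8, 14.4 and 33.9 CPM in KO, with a log2 change of 0.32 (-1.06 to 1.70, adjusted p = 0.917, edgeR).

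**Figure D1:**
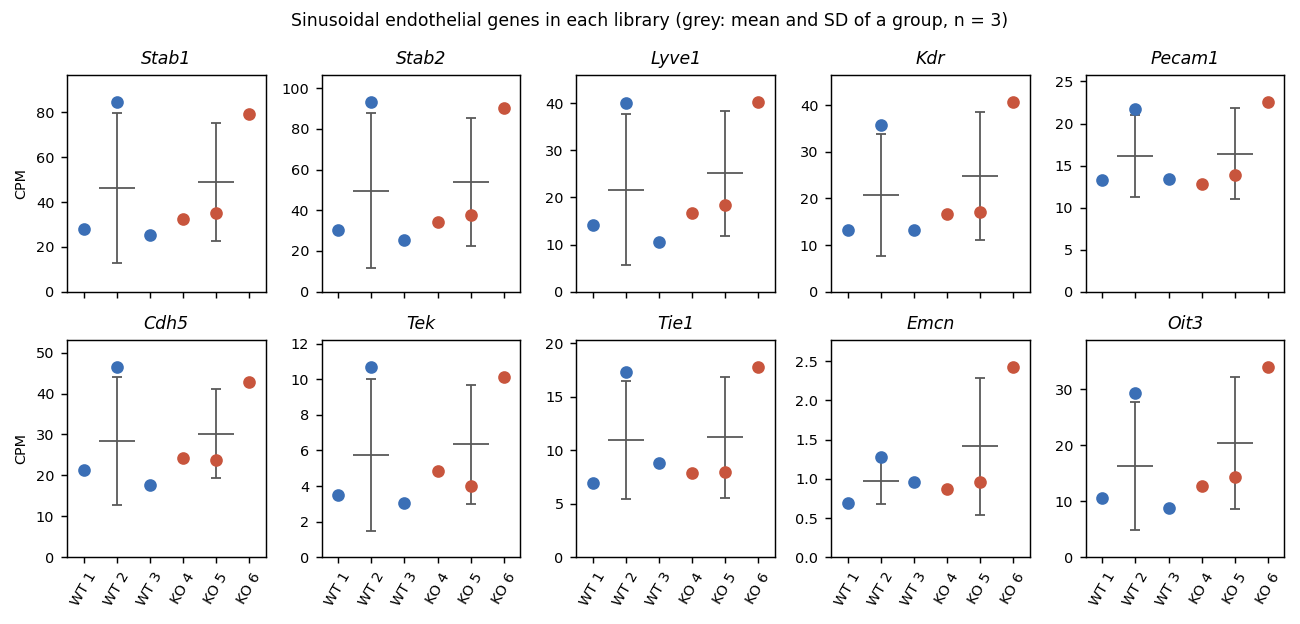
Level of each gene in CPM (vertical axes, each starting at 0) in the 3 WT (blue) and 3 KO (red) libraries, with the mean and SD of each group in grey. In all 10 panels WT 2 and KO 6 lie above the other 4 libraries.

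As a list, the 10 genes had a median log2 change of 0.13, beside -0.03 over all 15105 tested genes, and all 10 estimates were above 0. This direction rested on single libraries. Without KO 6 all 10 estimates were below 0 (median -0.34, all tested genes -0.09), and without WT 2 all 10 were above 0 (median 0.89, all tested genes 0.0074). Without WT 1 or WT 3 the median was -0.09 or -0.11. The smallest adjusted p among the 10 was 0.209 without WT 2 and 0.698 without KO 6 (edgeR). So 0 of 10 passed in these fits too, where 9.77% of all tested genes passed without WT 2 and 0.645% without KO 6.

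Leaving out WT 2 and KO 6 together, the highest libraries for all 10 genes, was bound to narrow the intervals, and it did. Among the remaining 4 libraries KO 4 and KO 5 both lay above WT 1 and WT 3 for 7 of the 10 genes, as they did for 26.0% of all tested genes. The exceptions were Pecam1, Tie1 and Emcn. Stab1 then had a log2 change of 0.35 (95% interval 0.13 to 0.58), Stab2 0.39 (0.13 to 0.66), Lyve1 0.52 (0.11 to 0.92), Kdr 0.38 (0.12 to 0.64), Cdh5 0.32 (0.03 to 0.60) and Oit3 0.51 (0.14 to 0.87). These 6 had an unadjusted p under 0.05 by edgeR, a rate reached in that direction by 12.3% of 15066 genes. After adjustment 0 of 10 passed, the smallest adjusted p being 0.0772 for Stab1 (edgeR), while 9.41% of all genes passed. The result with 2 libraries a group therefore remained below the threshold. The summed hepatocyte markers were 16102 CPM in WT 1 and 9562 CPM in WT 3. They were 13990 CPM in KO 4 and 21704 CPM in KO 5. Whether these 6 changes follow hepatocyte content in the 4 libraries was not tested.

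When the mean level of hepatocyte markers entered the fit of all 6 libraries as a covariate, standard errors were smaller and the estimates ran from -0.11 (Tie1) to 0.40 (Emcn). The standard error for Stab2 went from 0.60 to 0.12, and its log2 change was 0.02 (95% interval -0.27 to 0.30). For Cdh5 the change was 0.01 (-0.22 to 0.24), for Lyve1 0.13 (-0.11 to 0.37) and for Tie1 -0.11 (-0.59 to 0.36). The largest were Emcn at 0.40 (-0.35 to 1.15) and Oit3 at 0.20 (-0.10 to 0.50). The median over the 10 genes was 0.05, and the smallest adjusted p was 0.341 (edgeR). Stab1 (-0.017), Pecam1 (-0.074) and Tie1 took a negative sign in this fit.

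**Figure D2:**
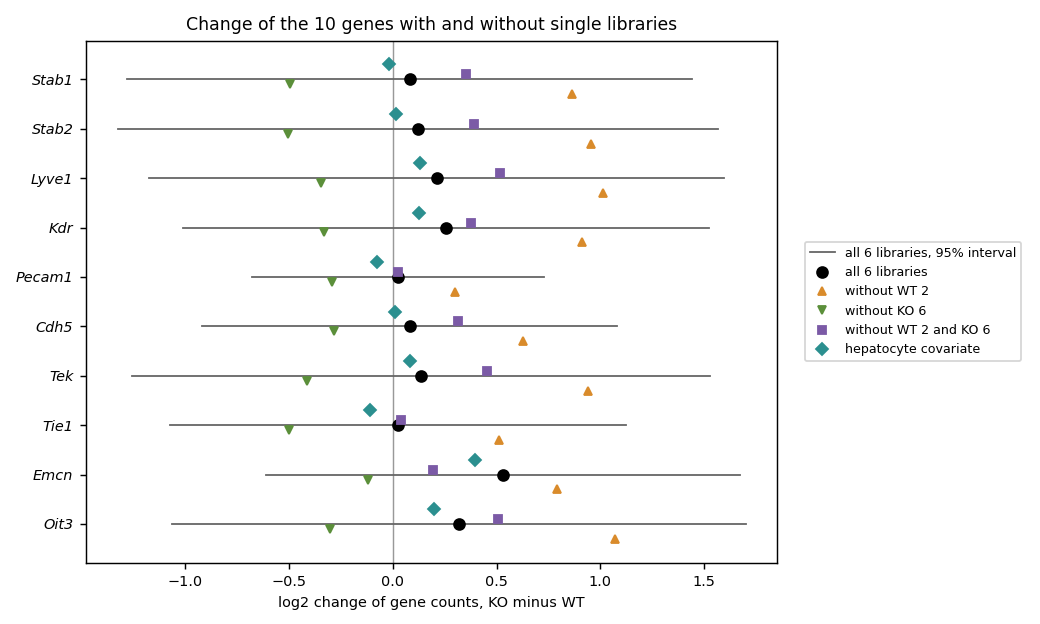
Log2 change of gene counts, KO minus WT (horizontal axis), for each gene: black points and grey lines give the estimate and 95% interval over all 6 libraries, and coloured marks the estimates without WT 2, without KO 6, without both, and with the hepatocyte covariate. All 10 estimates are below 0 without KO 6 and above 0 without WT 2, and the 10 intervals over 6 libraries include 0.

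The 10 genes shared a pattern across libraries. For all 10, WT 2 and KO 6 were above the other 4 libraries, as they were for 24.0% of all tested genes. The mean of WT 2 and KO 6 was 2.88 times the mean of the other 4 for Stab2, 2.73 for Oit3, 2.72 for Stab1, 2.70 for Tek and 2.69 for Lyve1. It was 2.55 for Kdr, 2.22 for Tie1, 2.13 for Emcn, 2.05 for Cdh5 and 1.66 for Pecam1. Thus 9 of 10 exceeded 2-fold, beside 10.9% of all tested genes, and the median was 2.62-fold beside 0.971-fold. WT 2 and KO 6 had nearly the same level as each other in 9 of the 10 genes, with KO 6 at 0.920 to 1.15 times WT 2, and at 1.89 times for Emcn. Within groups, the SD of the log2 level was 0.41 to 0.89 for the 10 genes, against a median of 0.17 over all tested genes.

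Hepatocyte, stellate and other endothelial genes were high in the same 2 libraries, macrophage genes mainly in WT 2, and megakaryocyte and erythroid genes in neither. All 20 hepatocyte markers (albumin, alpha-fetoprotein and others) were higher in WT 2 and KO 6 than in the other 4 libraries, at a median of 3.40-fold. The same was true of 12 of 13 tested stellate and mesenchymal markers (1.79-fold), 14 of 16 macrophage markers (1.69-fold), 13 of 15 other sinusoidal genes (2.06-fold) and 17 of 20 other endothelial genes (1.97-fold). Macrophage markers were a median of 2.23-fold higher in WT 2 than the mean of WT 1 and WT 3, but 1.24-fold higher in KO 6 than the mean of KO 4 and KO 5. For hepatocyte markers these folds were 4.54 and 2.48, and for stellate markers 1.77 and 1.69. Being higher in WT 2 and KO 6 held for 0 of 11 megakaryocyte markers (0.984-fold), 3 of 11 stem and progenitor markers (1.20-fold) and 0 of 13 erythroid markers (0.816-fold). No marker of these lists was at 0 in all libraries.

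These lists also give the content of other cells beside the endothelial values. The summed level of the 10 endothelial genes was 142, 381 and 127 CPM in WT and 163, 173 and 380 CPM in KO. Macrophage markers summed to 385 to 956 CPM in WT and 455 to 666 CPM in KO, and stellate markers to 88.9 to 192 CPM and 97.4 to 183 CPM. Markers of megakaryocytes, which also carry PECAM-1, summed to 285 to 573 CPM in WT, highest in WT 3, and to 286 to 485 CPM in KO, highest in KO 4. Stem and progenitor markers summed to 332 to 389 CPM in WT and 400 to 448 CPM in KO. Of that sum Mllt3 alone gave 155 to 213 CPM in WT and 252 to 285 CPM in KO. The other 10 markers summed to 169 to 177 CPM in WT and 148 to 170 CPM in KO. Erythroid markers summed to 25492 to 35240 CPM in WT and 19489 to 22801 CPM in KO. The part of each of these cell types in the endothelial values was not tested.

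**Figure D3:**
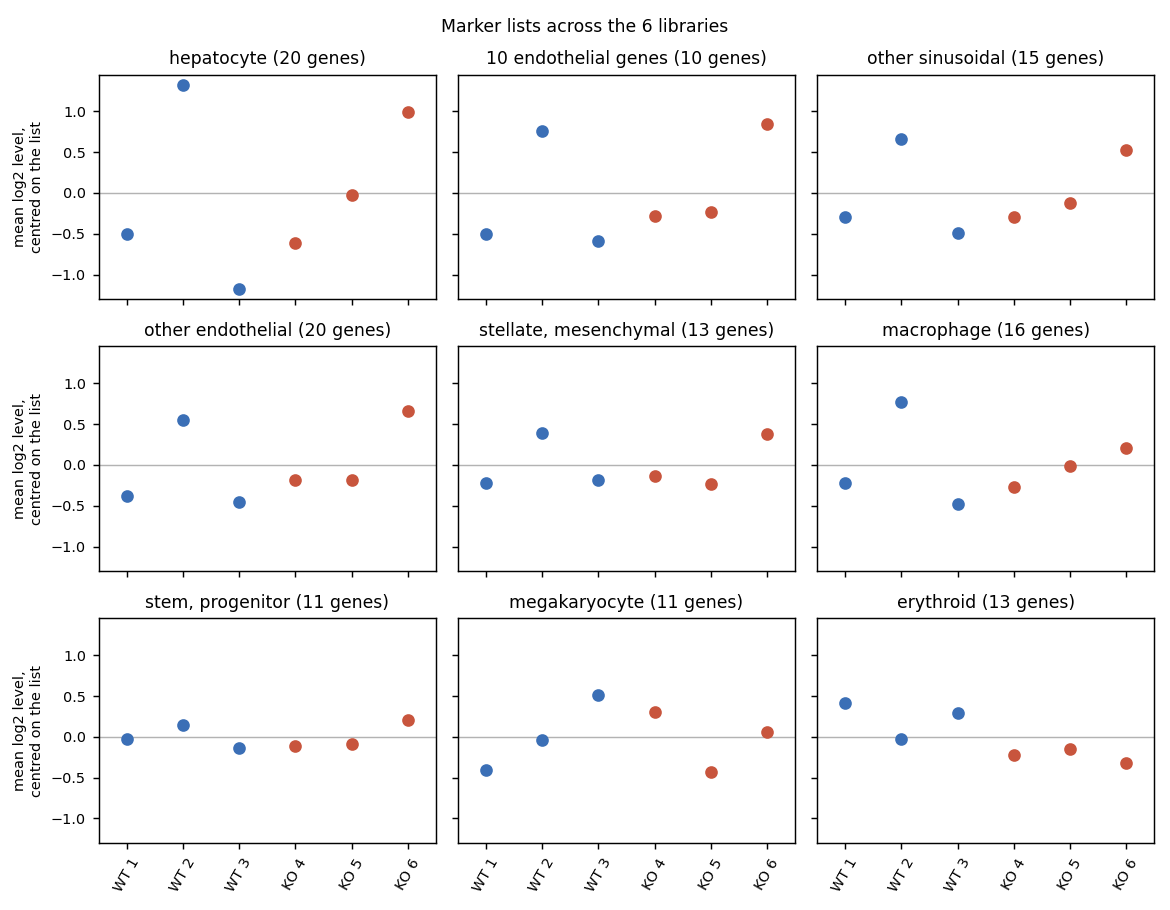
Mean log2 level of each marker list in the 6 libraries, centred on the mean of the list (vertical axis, the same in all panels), WT in blue and KO in red. Hepatocyte, endothelial and stellate lists are high in both WT 2 and KO 6 and the macrophage list mainly in WT 2, whereas megakaryocyte and erythroid lists are highest in other libraries.

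Counts of each gene were next set against those of Cdh5 in the same library, a ratio that does not depend on library scaling. Stab1 stood at 132% to 186% of the Cdh5 count and Stab2 at 141% to 211%, each lowest in WT 1 and highest in KO 6. Lyve1 (60.1% to 94.5%), Kdr (61.3% to 95.4%), Tek (16.4% to 23.8%) and Oit3 (49.5% to 79.5%) were also highest in KO 6. Relative to VE-cadherin, Stab1, Stab2, Lyve1, Kdr, Tek and Oit3 were thus higher in the 2 libraries rich in hepatocyte transcripts, WT 2 and KO 6. Pecam1 went the other way, from 46.8% of the Cdh5 count in WT 2 to 76.1% in WT 3, and it stood at 61.9% in WT 1 and 52.9% to 58.5% in KO. WT 3 had the highest megakaryocyte sum. Within KO the ratio was 53.1% in KO 4, highest of KO in that sum, and 58.5% in KO 5, lowest of KO in it. Whether the ratio follows that sum was not tested. Tie1 was likewise highest against Cdh5 in WT 3, at 49.5%, and ranged from 32.5% to 41.5% elsewhere. The proportions among the 10 genes therefore differed between libraries by 1.41-fold (Stab1) to 2.05-fold (Emcn), less than the 2.62-fold range of Cdh5 itself.

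Levels of different genes were compared per kilobase of exon, with lengths from the GRCm38 annotation. Lyve1 had the highest mean over the 6 libraries, 8.01 ± 4.56 CPM per kilobase (SD, n = 6), followed by Cdh5 (6.98 ± 2.87), Oit3 (6.57 ± 3.81), Stab2 (5.92 ± 3.57) and Stab1 (4.62 ± 2.63). Pecam1 (2.61 ± 0.733), Kdr (2.52 ± 1.35), Tie1 (2.26 ± 1.02), Tek (1.28 ± 0.729) and Emcn (0.221 ± 0.117) came next. Between neighbours in this order the difference of means exceeded the SD of both genes only for Tek and Emcn. For Stab1 and Pecam1, and for Tie1 and Tek, it exceeded the smaller of both SDs. The order within a library was steadier than those SDs: Stab1 ranked 5, Tek 9 and Emcn 10 in all 6 libraries. Lyve1 ranked 1 or 2, and Pecam1, Kdr and Tie1 exchanged ranks 6 to 8.

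**Figure D4:**
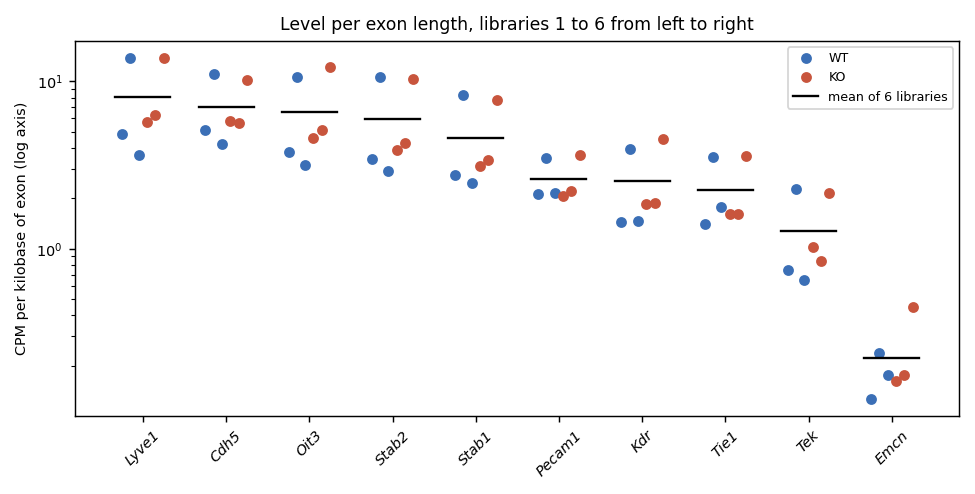
Level in CPM per kilobase of exon (log axis) for the 10 genes in order of their mean, each with its 3 WT (blue) and 3 KO (red) libraries from left to right and the mean of 6 as a line. Lyve1, Cdh5, Oit3, Stab2 and Stab1 lead in each library, and Emcn is lowest in all 6.

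Among 10533 other genes whose mean reached 5 CPM, 5 followed the mean profile of the 10 most closely. Likeness was the root mean square difference between centred log2 levels over the 6 libraries. These were Asb13 (0.061), Arhgap29 (0.063), Onecut2 (0.069), Sparc (0.072) and Fgd5 (0.074). Arhgap29 encodes a GTPase-activating protein acting on RhoA, Fgd5 an exchange factor of endothelial cells, Sparc a matrix protein, and Onecut2 a transcription factor of developing hepatocytes. Sparc, for example, measured 18.2, 47.5 and 15.5 CPM in WT and 21.5, 22.0 and 48.5 CPM in KO, and 0 of the 5 passed the KO against WT test (edgeR). Within the 10, Kdr lay closest to the mean profile (0.075) and Pecam1 (0.26) and Emcn (0.31) farthest. In all, 119 of the 10533 genes lay closer to it than the median of the 10 did.

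Other genes of the same vessels and pathways were taken from fixed lists and compared between KO and WT. Of 16 other sinusoidal genes 15 were tested, and 0 passed in either direction by edgeR (median log2 change 0.10; at an unadjusted p under 0.05, 1 was lower and 0 were higher; 1 was lower by DESeq2). Their most abundant members were the scavenger receptor gene Cd36, with 95.9 ± 16.6 CPM in WT and 52.4 ± 11.4 CPM in KO (log2 change -0.87, adjusted p = 0.0795, edgeR), and the mannose receptor gene Mrc1, with 43.5 ± 24.6 and 41.7 ± 14.3 CPM (n = 3 each). Both are also expressed in macrophages, and Cd36 in other blood cells. Of 20 other endothelial genes 0 passed by edgeR (median 0.19; at an unadjusted p under 0.05, 1 was higher and 0 were lower) and 0 by DESeq2. Eng, the TGF-beta co-receptor endoglin, measured 24.5 ± 8.75 and 27.5 ± 5.48 CPM, and Vwf, von Willebrand factor, which megakaryocytes also make, 46.8 ± 14.4 and 45.4 ± 9.89 CPM. Of the hyaluronan genes 7 of 11 were tested and 0 passed (median 0.0041; at an unadjusted p under 0.05 by edgeR, 1 was lower and 0 were higher; 0 by DESeq2). Cd44, another hyaluronan receptor, stood at 96.6 ± 6.60 and 80.6 ± 7.26 CPM, and Hmmr, a hyaluronan-binding protein of dividing cells, at 365 ± 63.9 and 308 ± 11.8 CPM.

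Single genes passed in 3 further lists. Among 18 tested endothelial and blood-endothelial transcription factors Hey2, a Notch target of arterial endothelium, fell and 0 rose (median -0.20; at an unadjusted p under 0.05, 3 were lower and 0 were higher). The WT libraries gave 42, 46 and 35 Hey2 counts and the KO libraries 11, 7 and 13, which is 1.34 ± 0.101 against 0.239 ± 0.0740 CPM (n = 3 each). Its log2 change was -2.47 with an SE of 0.29 and an adjusted p of 0.0160 by edgeR. All 3 KO libraries lay below all 3 WT libraries. Among 14 tested ligands, receptors and partners of VEGF and angiopoietin signalling Figf (Vegfd), a ligand of VEGFR3, fell and 0 rose (median 0.10; at an unadjusted p under 0.05, 1 was lower and 0 were higher). Figf measured 2.07 ± 0.128 CPM in WT against 0.900 ± 0.0288 CPM in KO, with 48 to 74 counts per WT library and 37 to 41 per KO library. The log2 change of Figf was -1.20 with an SE of 0.18 and an adjusted p of 0.0269 by edgeR. Among 11 junction partners Ctnnb1, the beta-catenin that binds VE-cadherin and is made in most cells, rose, and the other 10 did not pass (median 0.03; at an unadjusted p under 0.05, 1 was higher and 2 were lower). Ctnnb1 measured 310 ± 19.6 CPM in WT against 431 ± 20.4 CPM in KO. Its log2 change was 0.47 with an SE of 0.09 and an adjusted p of 0.0476 by edgeR. The mean of WT 2 and KO 6 over the mean of the other 4 libraries was 1.045 for Hey2. It was 0.962 for Figf and 1.086 for Ctnnb1, beside a median of 2.62 for the 10 genes and 1.97 for the other endothelial genes. Which cells the changes in Hey2, Figf and Ctnnb1 came from was not tested.

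These 3 calls depended on which library was left out and, for Ctnnb1, on the processing. Over 14 alternatives Hey2 kept its call in 10, with adjusted p from 9.9e-05 to 0.0882, and lost it without WT 1, WT 3, KO 4 or KO 5. Figf kept it in 9 (0.00316 to 0.135) and lost it without WT 1, WT 3, KO 4, KO 5 or KO 6. Ctnnb1 kept it in 7 (1.9e-06 to 0.213) and lost it in those 5 fits, without the low count filter (0.0552) and in the exon table (0.0535). Without both WT 2 and KO 6 all 3 kept the call (adjusted p = 0.0153, 0.0339 and 0.0138 in the same order, edgeR). Each kept its sign in all 14. Ctnnb1 shares its 3' end with Ulk4 on the opposite strand, and the labels do not say whether counting used strand.

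Of the 3 genes with a seed match, 1 had the largest of the 10 estimates, 1 lay near the median and 1 near the smallest. Pecam1, with the miR-451a match, had a log2 change of 0.03, and Tek, with the 3 matches to miR-144-3p, had 0.14, beside a median of 0.13 over the 10. Emcn, with the match to miR-144-5p, had the largest estimate, 0.53, at the lowest counts. None of the 3 passed the test (adjusted p = 0.998, 0.986 and 0.707, edgeR), and their intervals were -0.68 to 0.73, -1.26 to 1.53 and -0.61 to 1.68.

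Positions in GRCm38 are given for reference, since the gene table is named for the older build NCBIM37. All 10 are protein-coding genes on different loci. Stab1 lies on chromosome 14 (31139013 to 31168641, minus strand), Stab2 and Oit3 on chromosome 10 (86841198 to 87008025 and 59422958 to 59441778, both minus), and Lyve1 on chromosome 7 (110850607 to 110863239, minus). Kdr is on chromosome 5 (75932827 to 75978458, minus), Pecam1 on chromosome 11 (106654217 to 106750628, minus) and Cdh5 on chromosome 8 (104101625 to 104144511, plus). Tek and Tie1 are both on chromosome 4 (94739289 to 94874976, plus, and 118471191 to 118490061, minus), and Emcn on chromosome 3 (137341067 to 137432185, plus). Exons of Stab1 overlap those of Nt5dc2 at its 3' end, and exons of Stab2 overlap those of the antisense gene Gm16268. Introns of Stab2 contain or overlap 4 other annotated transcripts on the opposite strand, and the first part of Cdh5 overlaps Gm29682 on the opposite strand. Without strand, reads of such pairs cannot be told apart.

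The RefSeq promoters that were given for 6 of the 10 genes were searched on both strands. Any bearing of promoter sequence on the shared pattern across libraries was not tested. The 250 bases before the start were searched for AGGAAG, a core bound by ETS factors such as ERG and FLI1. It was found in 4 of 6 (Stab1, Stab2, Tie1 and Emcn), beside 29.5% of 32851 promoters of all genes. The core of the GATA1 family, AGATAA, is held by 9.99% of all promoters and was found in 0 of 6. GTAAACA, bound by forkhead factors and held by 3.17%, was found in 0 of 6. TATAAA, the start site box held by 12.4%, was also found in 0 of 6. A match is a description of these letters and not evidence of binding. A promoter with a match and another without are shown, 5′ to 3′ on the strand of the gene, the match in capitals (GRCm38.p6; Stab1 chr14:31168642-31168891, minus strand; Tek chr4:94739039-94739288, plus strand).
Stab1: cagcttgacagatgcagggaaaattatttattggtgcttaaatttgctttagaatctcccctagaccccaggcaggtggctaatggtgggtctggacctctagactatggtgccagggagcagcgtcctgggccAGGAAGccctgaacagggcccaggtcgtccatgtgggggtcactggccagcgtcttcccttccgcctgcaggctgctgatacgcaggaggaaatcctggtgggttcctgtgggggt
Tek: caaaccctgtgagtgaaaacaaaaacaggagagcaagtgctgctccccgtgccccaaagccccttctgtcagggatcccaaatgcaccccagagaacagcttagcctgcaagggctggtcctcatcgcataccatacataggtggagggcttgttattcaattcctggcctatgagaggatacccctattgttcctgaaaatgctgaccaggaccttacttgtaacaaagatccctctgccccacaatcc

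Intron counts, which stand for unspliced RNA, were then examined, and here the WT columns did not follow the exon columns of the same number. Over 9006 genes with a mean of at least 50 exon and 50 intron counts, centred log2 levels of each exon column were correlated with those of each intron column (across genes, which are not independent). In KO the best match of each exon column was the intron column of the same number (r = 0.75, 0.46 and 0.74 for KO 4, KO 5 and KO 6). In WT it was another: exon column 1 was most like intron column 2 (r = 0.65, against 0.53 for its own number), exon column 2 most like intron column 3 (0.81 against -0.23), and exon column 3 most like intron column 1 (0.73 against -0.56). The Y-linked gene Ddx3y behaved the same way: its intron counts were 7.42%, 29.3% and 49.5% of its exon counts in WT 1, WT 2 and WT 3, and 18.7% to 22.0% in KO. With intron columns 2, 3 and 1 beside exon columns 1, 2 and 3 the WT values were 23.0%, 18.7% and 25.0%. Columns were kept as their headers name them. The intron to exon ratios and the fit of exonic against intronic change over all 6 libraries are also given in the other order, chosen after the data were seen. Fits of that change with a library left out are by header only. The comparison of all KO with all WT intron columns does not depend on that order.

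The 10 genes showed the same mismatch. In all 10 the 2 highest intron levels were in WT 3 and KO 6, as for 20.2% of 11803 tested genes, while the 2 highest exon levels were in WT 2 and KO 6. Intron counts of Stab2 were 440, 489 and 1610 for WT and 1048, 703 and 1848 for KO. By the headers, introns were 43.8%, 14.9% and 262% of exon counts in WT 1, WT 2 and WT 3 and 44.6% to 65.2% in KO. In the other order the WT values were 48.7%, 49.2% and 71.7%. For Cdh5 the range over 6 libraries went from 8.85-fold by the headers to 1.23-fold, for Kdr from 11.6-fold to 1.63-fold and for Stab1 from 16.4-fold to 1.73-fold. The range became smaller for each of the 10 genes, and Emcn, with 4 to 20 intron counts, had the widest in the other order (4.88-fold, 6.96-fold by the headers).

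**Figure D5:**
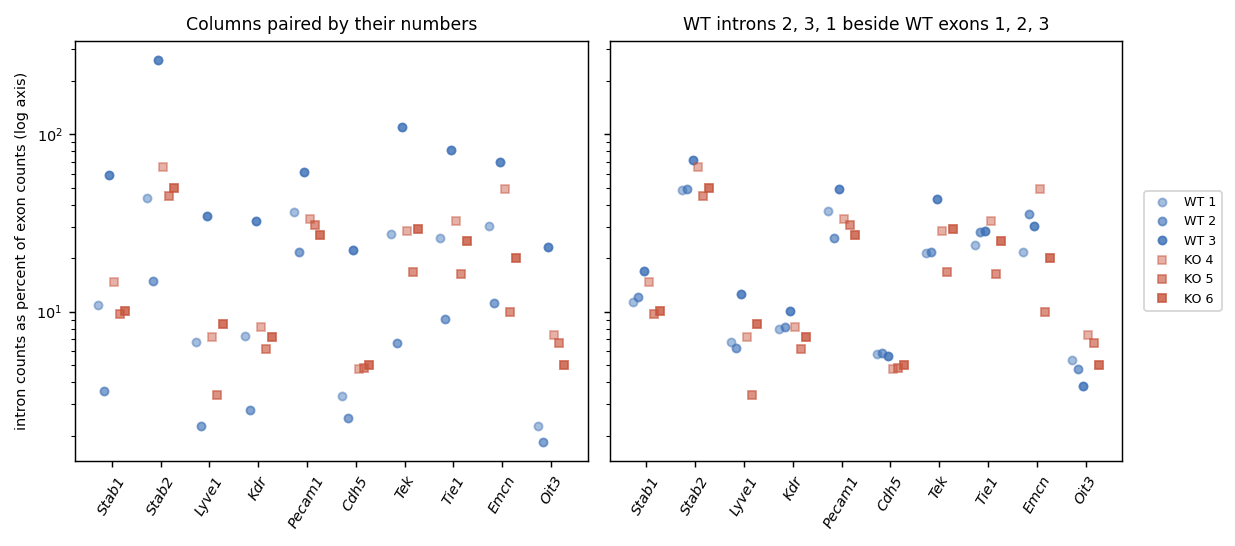
Intron counts as a percentage of exon counts (log axis) for the 10 genes in each library, WT as blue circles and KO as red squares, with columns paired by their header numbers (left) and with WT intron columns 2, 3 and 1 beside WT exon columns 1, 2 and 3 (right). On the left WT 3 lies highest for all 10 genes, and on the right the libraries lie closer together.

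Intron counts did not separate the genotypes either. All 10 genes were tested, and 0 passed by edgeR, beside 0.72% of 11803 genes (0.237% higher and 0.483% lower), with 0 at an unadjusted p under 0.05. By DESeq2 0 of the 10 passed, beside 340 of the 11803. Estimates were above 0 for 6 of 10, with a median of 0.12 beside 0.02 over all tested genes. Oit3 had the largest, 0.69 (95% interval -0.72 to 2.09, adjusted p = 0.800, edgeR, n = 3 each), from 8, 19 and 49 intron counts per WT library and 44, 40 and 70 per KO library. Stab2 introns measured 122 ± 92.4 CPM in WT and 136 ± 72.2 CPM in KO, a log2 change of 0.16 (-1.08 to 1.40, adjusted p = 0.990, edgeR). The groups overlapped for all 10 genes, and did not overlap for 17.5% of all tested genes. Single columns again moved the median: it was 0.79 without the intron column WT 3, -0.45 without KO 6, -0.12 without WT 1 and -0.13 without WT 2. Without WT 3, Oit3 stood at 1.53 and 2 of 10 had an unadjusted p under 0.05, beside 15.0% of 11949 genes. None of the 10 passed in that fit (smallest adjusted p = 0.245, edgeR), beside 1.24% of all genes.

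The exonic change was finally set against the intronic change in 1 fit, with a term per sample. By edgeR 0 of the 10 genes passed (0 at an unadjusted p under 0.05), beside 0.0% of 11100 genes. By DESeq2 0 of the 10 passed, beside 39 of the 11100. The median difference was 0.11 with columns paired by header, with standard errors from 0.30 (Pecam1) to 0.81 (Tek). In the other order of WT intron columns the median was 0.10 and standard errors were 0.11 (Stab2) to 0.52 (Emcn). In that order 0 of 10 passed by edgeR, beside 64 of the 11100 genes. For Stab2 the difference went from -0.08 (95% interval -1.91 to 1.76) to -0.06 (-0.31 to 0.19), and for Stab1 from 0.10 (-1.70 to 1.90) to 0.09 (-0.23 to 0.41). Oit3 was the most negative in both, -0.50 (-2.34 to 1.35) and -0.45 (-1.09 to 0.18).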

How the data were processed

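The authors deposited raw counts per gene symbol in 6 libraries, a table in which 0 globin or mitochondrial symbols were found, and a second table of exon counts and intron counts. Its exon counts equal the gene counts for all 15543 genes. STAR and HTSeq, without versions or roles, and the builds NCBIM37 and mm10 are named in the submitters' processing notes. Gene models, strand and the definition of introns: not given in the sources used here. Library sizes were adjusted by TMM scaling, and counts were tested with edgeR 4.0.16 in R 4.3.3 (quasi-likelihood F test, filterByExpr with a minimum count of 10 and minimum total of 15, two-sided). P-values were adjusted by the Benjamini-Hochberg method over all tested genes with a threshold of 0.05. Alternatives used DESeq2 1.42.0, limma-voom 3.58.1, other scalings, no filter, a hepatocyte marker covariate, the exon table and left-out libraries. Log2 levels used a pseudocount of 0.5 CPM. Depth was 24659978 to 44700229 counts per library. Without molecular identifiers, intervals on counts describe counting error alone. The fits were tested on simulated data. The genes and lists were chosen with earlier results of these data known. Named genes are the 10 genes, the deleted microRNA genes, up to 3 called genes of each list or its 2 most abundant where none was called, and the 5 genes with the nearest profile. Xist and Ddx3y lie outside this rule and were chosen after their values were seen. Older symbols were matched through the RefSeq gene table. Among the lists, 0 of 20 hepatocyte, 16 macrophage, 13 stellate, 11 megakaryocyte and 11 stem markers passed by edgeR. Among these markers, at an unadjusted p under 0.05 by edgeR, 1 stem marker was higher, and 1 stem and 1 stellate marker were lower. By DESeq2, 1 stem marker was higher. Of 13 erythroid markers 2 fell by edgeR (Tfrc, log2 change -0.83, and Epb4.2, -0.72) and 9 by DESeq2. At an unadjusted p under 0.05 by edgeR, 9 of the 13 erythroid markers were lower and 0 were higher.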

Additional observations from a re-analysis of the deposited data

How the results depend on the processing

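No paired analysis was possible because no number is shared between the groups, WT being 1 to 3 and KO 4 to 6. None of the 10 genes passed in gene counts under any of the 14 alternatives. The count of called genes was 495 over all tested genes, 1307 by DESeq2, 796 with upper quartile scaling, 328 in the exon table, 2629 with the hepatocyte covariate, 1418 without WT replicate 2 and KO replicate 6, and 12 to 1495 on leaving out 1 library. In introns it was 85, with 340 by DESeq2 and 10 to 148 on leaving out 1 library. For the exonic minus intronic change it was 0, with 39 by DESeq2, 9 with no term per sample, 64 with WT intron columns 2, 3, 1 beside WT exon columns 1, 2, 3 (added after the data were seen) and 0 to 150 on leaving out 1 library. The cause was not tested, except that left-out libraries reduce the sample. The median change of the 10 genes was 0.13, and -0.34 to 0.89 on leaving out 1 library. On the log2 scale, leaving out 1 library gave for gene counts Stab1 -0.49 to 0.87, Stab2 -0.51 to 0.96, Lyve1 -0.35 to 1.01, Kdr -0.33 to 0.91, Pecam1 -0.30 to 0.30, Cdh5 -0.28 to 0.63, Tek -0.42 to 0.94, Tie1 -0.50 to 0.51, Emcn -0.12 to 0.79 and Oit3 -0.30 to 1.07. For introns it gave Stab1 -0.47 to 0.73, Stab2 -0.36 to 0.96, Lyve1 -0.77 to 0.80, Kdr -0.48 to 0.78, Pecam1 -0.26 to 0.10, Cdh5 -0.44 to 0.57, Tek -0.46 to 0.90, Tie1 -0.60 to 0.61, Emcn -0.17 to 0.80 and Oit3 0.28 to 1.53. For the exonic minus intronic change it gave Stab1 -0.79 to 0.98, Stab2 -0.97 to 0.82, Lyve1 -0.63 to 1.15, Kdr -0.62 to 0.94, Pecam1 -0.036 to 0.42, Cdh5 -0.69 to 0.72, Tek -0.80 to 0.97, Tie1 -0.57 to 0.74, Emcn -0.29 to 0.80 and Oit3 -1.56 to 0.27. These exonic minus intronic ranges pair columns by header and were not run in the other order. Their median over the 10 genes was 0.81 without WT 2 and -0.66 without WT 3. Without WT 3, 3 of 10 had an unadjusted p under 0.05 (edgeR), but the share of all genes at that p is not given. The WT columns paired by header in it did not match over all genes, so this count cannot be read as a result. The smallest adjusted p in that fit was 0.0704 (edgeR), so 0 of 10 passed, beside 150 of 11259 genes. Signs in gene counts also turned with the hepatocyte covariate for Stab1 (-0.017), Pecam1 (-0.074) and Tie1 (-0.11), and by limma-voom for Pecam1 (-0.011) and Tie1 (-0.012). For the exonic minus intronic change of Tek, the sign turned with no term per sample (-0.13) and in the other order of WT intron columns (-0.027). Among scalings and filters (RLE, upper quartile, no filter) all 10 gene count changes kept their sign. Depth limits Emcn most, with 4 to 20 intron counts.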

Other observations

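Xist and Ddx3y were both detected in all 6 libraries. Whether each library was a pool of male and female embryos was not given in the labels and was not tested. Xist, transcribed from the inactive X chromosome, measured 231, 603 and 1165 CPM in WT 1, WT 2 and WT 3 and 491, 1016 and 884 CPM in KO 4, KO 5 and KO 6. The Y-linked gene Ddx3y measured 92.9, 69.4 and 38.2 CPM in WT and 77.1, 30.1 and 59.8 CPM in KO. Within WT, WT 1 was lowest in Xist and highest in Ddx3y and WT 3 was the reverse. Within KO, KO 4 was lowest in Xist and highest in Ddx3y and KO 5 was the reverse. Within each group the order of Ddx3y differed from that of the endothelial genes, which were highest in WT 2 and KO 6.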
